A study of Homo sapiens with 89 samples.

Results

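Depletion of EXOSC10 in IMR-32 cells was compared with the same cells without the depletion, in 6 of the 89 samples of the series. The 3 depleted libraries are the doxycycline columns of the IMR-32 gene count table and the 3 control libraries are its EtOH (solvent) columns. All genes of the table were taken, and 17103 of 57905 had enough counts to be tested. The series as a whole asks how MYCN and the nuclear RNA exosome act together in neuroblastoma cells. IMR-32 is an established cell line from a human neuroblastoma, a tumour of the sympathetic nervous lineage, and carries amplified MYCN. Its cells held a short hairpin RNA (shRNA) against EXOSC10 that is switched on by doxycycline, given at 1 µg/ml. The labels mark the hairpin as inactive in the controls. In all 6 libraries they mark the hairpin against MYCN as inactive, IAA (the auxin that degrades tagged EXOSC5) as not given and mutant HA-EXOSC10 as not expressed. No length of treatment is stated, and doxycycline and the hairpin were given together, so their effects cannot be told apart. A further 9 libraries from SHEP, a neuroblastoma line without amplified MYCN, enter at the end: 3 without induced MYCN, 3 with doxycycline-induced wild type MYCN and 3 with the MYCN 3A mutant.

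The RNA exosome is a ring of subunits that feeds RNA to nucleases which digest it from the 3′ end. EXOSC10 is a nuclease of its nuclear form and is known for trimming ribosomal RNA precursors in the nucleolus and for degrading short-lived noncoding transcripts. Helper complexes bring RNA to the exosome: NEXT and PAXT in the nucleoplasm and TRAMP in the nucleolus. MYCN is the transcription factor that drives growth, ribosome production and metabolism in these tumour cells.

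The libraries hold poly(A) RNA, with 16394148 to 26193478 counts each. Levels are given as counts per 1000000 counts of the library (CPM), scaled between libraries by the TMM method. Changes are log2 fold changes, depleted minus control, from edgeR's quasi-likelihood test, and a gene is called higher or lower at a Benjamini-Hochberg adjusted p under 0.05. The first principal component took 47.3% of the variance and separated the 2 groups. Mitochondrial genes took 6.70% to 7.49% of counts in the control libraries and 7.90% to 8.22% in the depleted ones. The labels do not say whether replicates came from separate cultures, so the p-values measure the spread between these libraries only.

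EXOSC10 mRNA was lower in every depleted library, and MYCN mRNA fell with it. EXOSC10 stood at 74.6, 64.00 and 67.1 CPM in the control libraries and 49.02, 46.7 and 46.1 CPM in the depleted libraries (log2 fold change -0.54, SE 0.08, edgeR adjusted p = 2.3e-08). MYCN stood at 1089.8, 1087 and 1115 CPM in the control libraries and 596, 595 and 605 CPM in the depleted libraries (log2 fold change -0.87, SE 0.04, edgeR adjusted p = 7.5e-30). The groups did not overlap for either gene, and the drop of MYCN was the larger of the 2. Hence each change below was measured in cells with less EXOSC10 mRNA and less MYCN mRNA together, and the parts of the 2 cannot be told apart. MYC, the related factor of other tumours, reached at most 0.242 CPM.

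The genes of the exosome and its helpers were called about as often as all genes. Of 28 tested members 5 were lower and 2 higher, beside 27.1% called among all tested genes (13.5% higher and 13.7% lower). Besides EXOSC10, the 4 lower members were NCBP2 (-0.47), a subunit of the nuclear cap-binding complex, ZCCHC8 (-0.33) of NEXT, EXOSC8 (-0.27) of the exosome ring and PABPN1 (-0.25) of PAXT, given with their log2 fold changes. PABPN1 shares 17% of its exon bases with a read-through gene. NCBP2 stood at 92.5, 97.7 and 99.1 CPM without and 67.2, 69.3 and 72.5 CPM with the induced hairpin (log2 fold change -0.47, SE 0.07, edgeR adjusted p = 1.9e-08). The 2 higher members, NCBP3 (0.22) and TENT4A (0.16), were called less firmly. NCBP3 lost the call without control replicate 2 or depleted replicate 1 or 3 and in the fit shared with SHEP described below (edgeR adjusted p = 0.067 to 0.21), and TENT4A in that fit and without any library but control replicate 3 (edgeR adjusted p = 0.058 to 0.25). The other 2 catalytic subunits were not called, with log2 fold changes of 0.12 for DIS3, the nuclease of the core, and 0.26 for DIS3L, its cytoplasmic form. Of 34 genes of other RNA decay routes, such as decapping, deadenylation and nonsense-mediated decay, 5 were higher and 2 lower; the higher count was 1 in the shared fit, 2 without depleted replicate 2 and 3 without control replicate 2 or 3, and the lower count was 1 in the shared fit and without control replicate 3 or depleted replicate 1.

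Across the transcriptome 4639 genes were called, 2302 higher and 2337 lower, and most changes were small. Of the called genes, 70.5% changed by less than 1.5-fold, and the median log2 fold change of all tested genes was -0.0011 with quartiles of -0.19 and 0.21. At a change of at least 2-fold, 398 genes were higher and 194 lower (3.46% of those tested), and at 4-fold 110 and 36. Genes called lower were the more abundant set, with a median control level of 58.9 CPM against 32.1 CPM for those called higher. As a group the lower genes went from 31.3% to 24.7% of the summed CPM and the higher genes from 20.2% to 25.8%. Both groups were chosen by their change in these libraries, so only the sizes of these shifts are informative. The CPM ranges of the 2 groups did not overlap for 6566 genes, 38.4% of those tested. In a fit of both cell lines together, which shares its estimate of the spread with the SHEP libraries, 2608 genes were called; where that shared fit or the loss of 1 library moves a list's count of 2 or more by more than 1.5-fold, its value is given beside the list.

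**Figure D1:**
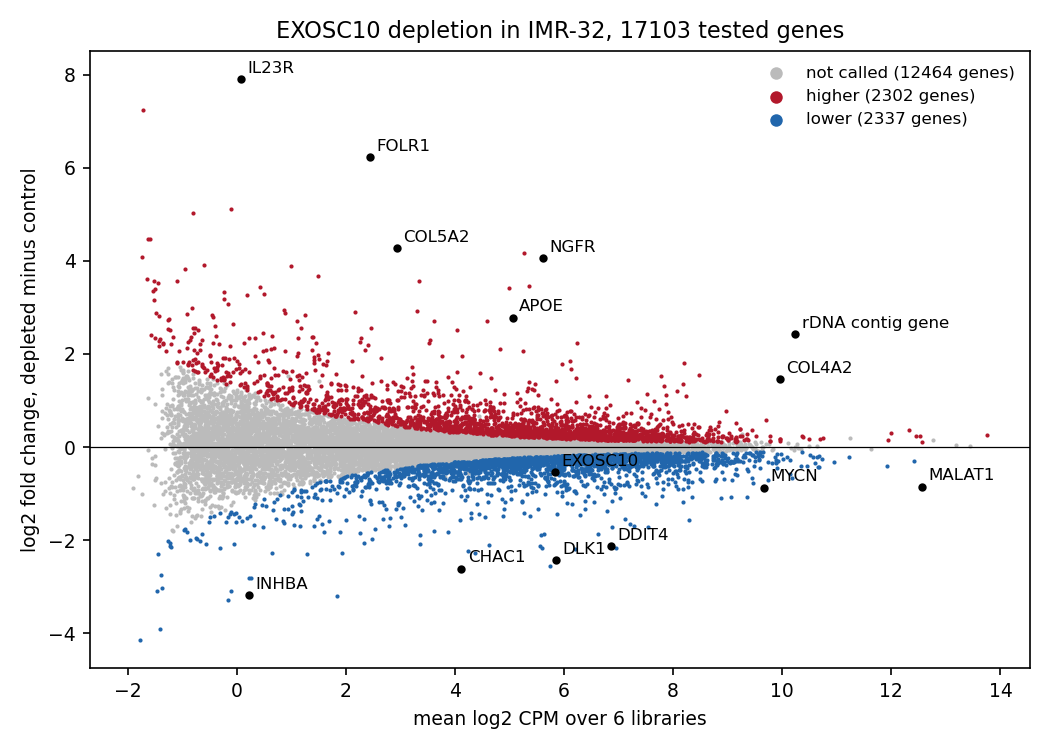
Log2 fold change (depleted minus control) against mean log2 CPM over the 6 libraries, 1 point per tested gene, red for 2302 genes called higher, blue for 2337 called lower, grey for the rest and black for the genes labelled by name. Large rises such as NGFR, COL5A2 and APOE lie above large falls such as CHAC1 and DLK1, while EXOSC10 itself sits at -0.54.

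**Figure D2:**
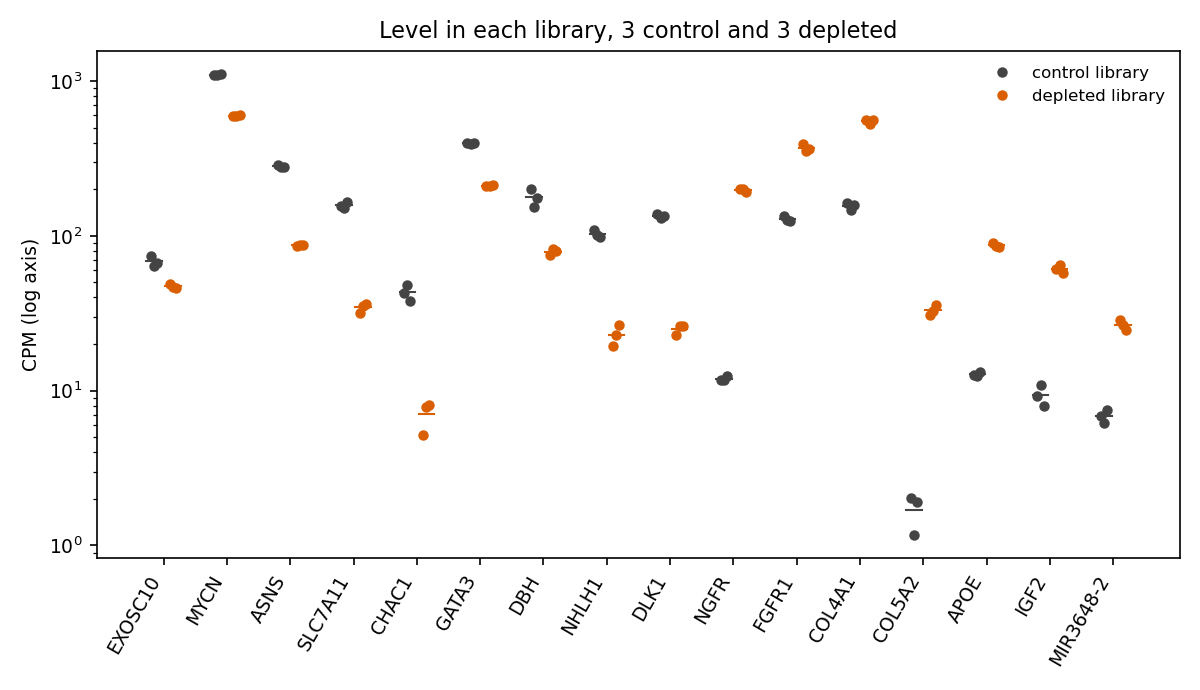
Level of 16 genes in each library, in CPM on a log axis, grey points for the 3 control and orange for the 3 depleted libraries, with a line at each mean. In each of the 16 genes the points of the 2 groups do not overlap, and replicates of a group sit close together. The 16 were picked with their values known. Over all 17103 tested genes the groups did not overlap for 38.4%.

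Reads assigned to ribosomal DNA were several times more frequent in the depleted libraries. The contig GL000220.1 of the hg19 build, which is known to carry a ribosomal DNA repeat, has 12 genes in the table, of which 6 were tested, 5 were higher and 0 were lower. These genes were picked after their values were seen, and their near-identical copies elsewhere make the assignment of reads uncertain. The longest, ENSG00000266658, of 5070 bases at 113348 to 118417 on the plus strand, has no symbol in the tables used. It had 10478, 12048 and 9812 counts in the control libraries and 59132, 47908 and 69857 in the depleted ones (log2 fold change 2.43, SE 0.09, edgeR adjusted p = 1.4e-06). It carried 98.7% to 99.3% of the contig's counts in each library. The contig took 0.0508%, 0.0591% and 0.0470% of counts in the controls and 0.295%, 0.296% and 0.269% after depletion. The amount of ribosomal RNA left over from poly(A) selection can differ between libraries, and its part in this result was not tested.

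MIR3648-2 moved with them. It lies on chromosome 21 at 9825832 to 9826011 (hg19, plus strand), in a copy of the ribosomal DNA, and is known to overlap the external spacer at the 5′ end of the ribosomal RNA precursor, a stretch that the nuclear exosome helps to destroy. Its locus collected 142, 126 and 157 counts in the control libraries and 580, 438 and 647 in the depleted libraries (log2 fold change 1.95, SE 0.13, edgeR adjusted p = 6.6e-21), so the groups were well apart. The mature miRNA is shown as the identity of this GC-rich locus, from RefSeq (GRCh38.p14), with its seed, bases 2 to 8, in capitals.
hsa-miR-3648: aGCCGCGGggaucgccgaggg
Poly(A) libraries do not measure the mature miRNA, so the counts stand for longer RNA over this locus. Of 18 tested loci annotated as miRNA in RefSeq it was the only 1 called. That count leaves out short loci without such an annotation. ENSG00000264063, which starts 191 bases further along the same strand, was also higher (2.08), from a mean of 2.45 to 10.3 CPM.

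Other noncoding RNAs did not move as a class. Of 958 long noncoding RNA genes 14.7% were called, 68 higher and 73 lower, and of 13055 protein-coding genes 31.6%; their median control levels were 2.35 and 29.5 CPM. The nuclear RNA MALAT1, a resident of splicing speckles, was the most abundant to fall. It stood at 8195, 9182 and 7042 CPM in the control libraries and 4565, 4555 and 4425 CPM in the depleted libraries (log2 fold change -0.85, SE 0.11, edgeR adjusted p = 0.0045). NEAT1, the scaffold of paraspeckles, fell by 0.40 on the log2 scale from a control mean of 1489 CPM to 1126 CPM (edgeR adjusted p = 6.6e-12). Of 26 host genes whose introns carry small nucleolar RNAs, 8 were lower and 3 higher, with SNHG5 (-0.47), SNHG1 (-0.26) and RACK1 (-0.26) among the lower and SNHG14 (0.35), SNHG12 (0.27) and TAF1D (0.20) the higher. Of 118 tested small nucleolar RNA genes 1 was higher and 3 lower. Of protein-coding genes spanning over 500 kb, 24.3% were higher and 15.7% lower, and of those under 5 kb, 9.73% were higher and 20.7% lower. The size classes between these had 14.1% to 18.6% higher and 15% to 16.5% lower. The median span of lower genes was 32707 bases, beside 33526 for genes not called. Without the genes for ribosomal proteins these medians were 34318 and 33536 bases.

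The genes of the amino acid stress response had the lowest median of the 57 gene lists examined. This program is run by ATF4, a transcription factor made when a kinase phosphorylates the initiation factor eIF2 alpha; it turns on amino acid synthesis, uptake and stress effectors. Of 51 tested members 40 were lower and 1 higher, with a median log2 fold change of -0.71 beside -0.0011 over all tested genes. The count of lower members was 39 or 40 under every alternative analysis. CHAC1, which breaks down glutathione, stood at 42.9, 48.4 and 38.2 CPM in the control libraries and 5.197, 7.799 and 8.12 CPM in the depleted libraries (log2 fold change -2.61, SE 0.12, edgeR adjusted p = 2.9e-28). SLC7A11, the cystine importer, stood at 155, 152 and 166 CPM without and 31.8, 35.2 and 36.5 CPM with the induced hairpin (log2 fold change -2.19, SE 0.07, edgeR adjusted p = 1.3e-39). ASNS, asparagine synthetase, stood at 285, 279 and 280.1 CPM without and 86.3, 87.1 and 87.1 CPM with the induced hairpin (log2 fold change -1.70, SE 0.05, edgeR adjusted p = 1.9e-39). For these 3 genes the lowest control library was at least 3 times the highest depleted one.

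Every role in the program held lower genes. Of its 8 transcription factors 7 were lower: ATF5 (-2.13), CEBPB (-1.82), ATF3 (-1.33), JDP2 (-1.30), DDIT3 (-0.66), ATF4 (-0.65) and CEBPG (-0.59), with TRIB3, a feedback inhibitor, at -0.18 and not called. ATF4 mRNA itself stood at 343, 351 and 328 CPM without and 221, 213 and 219 CPM with the induced hairpin (log2 fold change -0.65, SE 0.05, edgeR adjusted p = 3.3e-19). Of 10 amino acid transporters 9 were lower, led after SLC7A11 by SLC7A5 (-1.17), the leucine carrier, and SLC1A4 (-0.91). Of 8 serine, glycine and folate enzymes 6 were lower, MTHFD2 (-0.80) and PHGDH (-1.05) among them; the latter opens serine synthesis. The next enzyme, PSAT1, was barely expressed (1.14 CPM in controls) and not called. Of 12 stress effectors 10 were lower, led by FGF21 (-2.81), a secreted stress hormone, CHAC1 (-2.61), DDIT4 (-2.13), an inhibitor of mTORC1, and STC2 (-2.07), while GDF15 stood at 0.14 and was not called. Among the 5 genes for the kinases and their target, EIF2AK1 was lower (-0.24) and EIF2AK3, which senses the endoplasmic reticulum, was higher (0.24); the latter call was lost in the shared fit and without replicate 1 or 2 of either group (edgeR adjusted p = 0.063 to 0.32).

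The promoters were searched for the word that ATF4 binds together with C/EBP factors, TGATGNAA, on both strands of the 300 bases from 250 before to 50 after each start (RefSeq, GRCh38.p14). The E-box CACGTG, bound by MYCN with MAX, was searched separately; neither word contains the other. The ATF4 word was in 3.67% of all 27305 promoters and in 1.65% of the 11440 belonging to tested genes. Among genes called lower the share was 2.87%, among those higher 1.21% and among those not called 1.47%. At a change of at least 2-fold it was 8.66% among lower genes (11 of 127) and 3.1% among higher genes (7 of 226). In the ATF4 list it was 23.3% (10 of 43 promoters). CACGTG was in 11.2% of lower, 10.3% of higher and 9.93% of uncalled genes' promoters, in 7.09% of those at least 2-fold lower and 7.08% of those at least 2-fold higher, and in 16.3% (7 of 43) in the ATF4 list beside 10.2% of tested genes. Parts of 4 promoters with the ATF4 word are shown, since these genes fell and show the word on either strand; the capitals mark the word or its reverse complement, and each is written 5′ to 3′ on the gene's own strand. They lie at chr7:97872424-97872521 (ASNS, minus strand), chr15:40953221-40953314 (CHAC1, plus strand), chr12:24949102-24949194 (BCAT1, minus strand) and chr16:70289641-70289738 (AARS1, minus strand).
ASNS: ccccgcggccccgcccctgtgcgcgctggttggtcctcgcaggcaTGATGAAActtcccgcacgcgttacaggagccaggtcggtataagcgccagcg
CHAC1: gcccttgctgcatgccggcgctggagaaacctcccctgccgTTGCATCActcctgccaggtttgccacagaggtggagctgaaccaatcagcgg
BCAT1: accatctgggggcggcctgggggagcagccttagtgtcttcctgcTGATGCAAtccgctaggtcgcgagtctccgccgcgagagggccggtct
AARS1: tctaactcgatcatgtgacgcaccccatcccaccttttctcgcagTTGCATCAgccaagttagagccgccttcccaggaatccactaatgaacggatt
A match is a description of letters, and binding was not measured in this comparison.

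Aminoacyl-tRNA synthetases, which load amino acids onto tRNA and are known ATF4 targets in their cytosolic forms, followed the program in part. Of 20 cytosolic enzymes 12 were lower and 2 higher, and of 17 mitochondrial ones 3 were lower and 0 higher. The higher count was 1 in the shared fit and without replicate 1 or 2 of either group. GARS1 stood at 264, 262 and 249.7 CPM in the control libraries and 114, 126 and 135 CPM in the depleted libraries (log2 fold change -1.05, SE 0.05, edgeR adjusted p = 1.2e-26). The next largest falls were WARS1 (-0.90), AARS1 (-0.81), CARS1 (-0.80) and SARS1 (-0.68). VARS1 went the other way, at 202, 194 and 198 CPM without and 241, 261 and 237 CPM with the induced hairpin (log2 fold change 0.31, SE 0.05, edgeR adjusted p = 5.3e-07). The ATF4 word was found in 7 of 30 synthetase promoters. Of these, 6 belong to lower genes, AARS1, CARS1, MARS1, IARS1, NARS1 and TARS1, and the other to YARS2, which was not called. GARS1, WARS1 and SARS1, which also fell, are not among the 7. Of all 37 tested synthetases 15 were lower, and a link between the word and the falls was not tested.

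Genes of endoplasmic reticulum stress did not fall as a group. Of 23 tested, 11 were higher and 5 lower. XBP1, the factor activated by the sensor IRE1, stood at 144, 151 and 144 CPM without and 87.8, 83.7 and 89.99 CPM with the induced hairpin (log2 fold change -0.75, SE 0.06, edgeR adjusted p = 1.7e-17). ERN1, which encodes IRE1, was lower (-0.78), as was HERPUD1 (-0.75). Of 14 chaperone and folding genes 8 were higher and 1 lower. HSPA5, the main lumenal chaperone, went from a mean of 938 to 1056 CPM (log2 fold change 0.17, edgeR adjusted p = 0.0003) and CRELD2 (0.34) and DNAJB9 (0.48) rose further, while HSP90B1, another abundant lumenal chaperone, was lower (-0.099, edgeR adjusted p = 0.043). The call of HSP90B1 was lost in 10 of the alternative analyses, among them library totals, both other filters and the shared fit (edgeR adjusted p = 0.057 to 0.30). The count of higher members of the whole list was 2 in the shared fit. Of 20 genes of the NRF2 antioxidant response and glutathione synthesis 10 were lower and 0 higher. Apart from SLC7A11, which both lists hold, NQO1 (-1.08), NFE2L2 (-0.58), the gene for NRF2 itself, TXN (-0.51) and PRDX1 (-0.42) fell.

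Cytosolic ribosomal protein mRNAs were lower in most cases, mainly by small amounts. Of 82 tested genes 73 were lower and 1 higher, with a median log2 fold change of -0.30; the large subunit had 45 of 50 lower and the small subunit 28 of 32. The count of lower members lay between 58 and 75 in the alternative analyses. RPL34 stood at 136, 156 and 146 CPM without and 75.01, 87.00 and 81.3 CPM with the induced hairpin (log2 fold change -0.85, SE 0.06, edgeR adjusted p = 5.5e-19). RPS25 and RPL29 followed at -0.82 and -0.75. The exception was RPS27L, a paralog of RPS27, at 23.7, 29.1 and 29.5 CPM without and 43.3, 45.6 and 45.3 CPM with the induced hairpin (log2 fold change 0.71, SE 0.09, edgeR adjusted p = 2.5e-09). Processed copies of ribosomal protein genes can take some of their reads, so single values are less certain than for other genes. Of 40 translation factors 23 were lower and 2 higher; the higher count was 0 in the shared fit and 1 without control replicate 1 or depleted replicate 2. EIF3H, a subunit of the initiation factor eIF3, stood at 122, 127 and 122 CPM without and 55.5, 54.96 and 57.02 CPM with the induced hairpin (log2 fold change -1.15, SE 0.06, edgeR adjusted p = 7.8e-25), and EIF1 (-0.79), EIF2S2 (-0.60) and EEF1A1 (-0.44) also fell. Of 46 ribosome biogenesis factors 11 were lower and 2 higher, which is 28.3% called beside 27.1% of all tested genes. The higher count was 1 in the shared fit and without control replicate 2 or 3 or depleted replicate 1 or 3. With library totals it was 4. UBTF, which binds ribosomal DNA for RNA polymerase I, was 1 of the 2 higher (0.30, edgeR adjusted p = 4.5e-07).

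Nuclear and mitochondrial genes for the respiratory chain moved apart. Of 74 nuclear-encoded subunits 38 were lower and 1 higher (median -0.17); 18 were lower in the shared fit and 23 without depleted replicate 3. Of 75 mitochondrial ribosomal proteins 23 were lower and 0 higher, with 12 lower without depleted replicate 1 and 15 without depleted replicate 3. Of the 13 mRNAs encoded by mitochondrial DNA 8 were higher and 0 lower, for example MT-CO1 at 12838, 12887 and 12071 CPM without and 14746, 15449.6 and 15337 CPM with the induced hairpin (log2 fold change 0.27, SE 0.03, edgeR adjusted p = 6.0e-10). In the shared fit 0 of the 13 were called higher. In glycolysis 11 of 23 genes were lower (6 in the shared fit) and 4 higher. GAPDH fell by 0.41 on the log2 scale while PKM, the pyruvate kinase, rose by 0.58, from a mean of 681 to 1018 CPM. ODC1, the entry enzyme of polyamine synthesis and a known MYC target, stood at 197, 204 and 228 CPM without and 119.6, 127 and 116 CPM with the induced hairpin (log2 fold change -0.80, SE 0.06, edgeR adjusted p = 6.0e-20). SAT1, which breaks polyamines down, was higher (0.61, edgeR adjusted p = 0.0048).

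**Figure D3:**
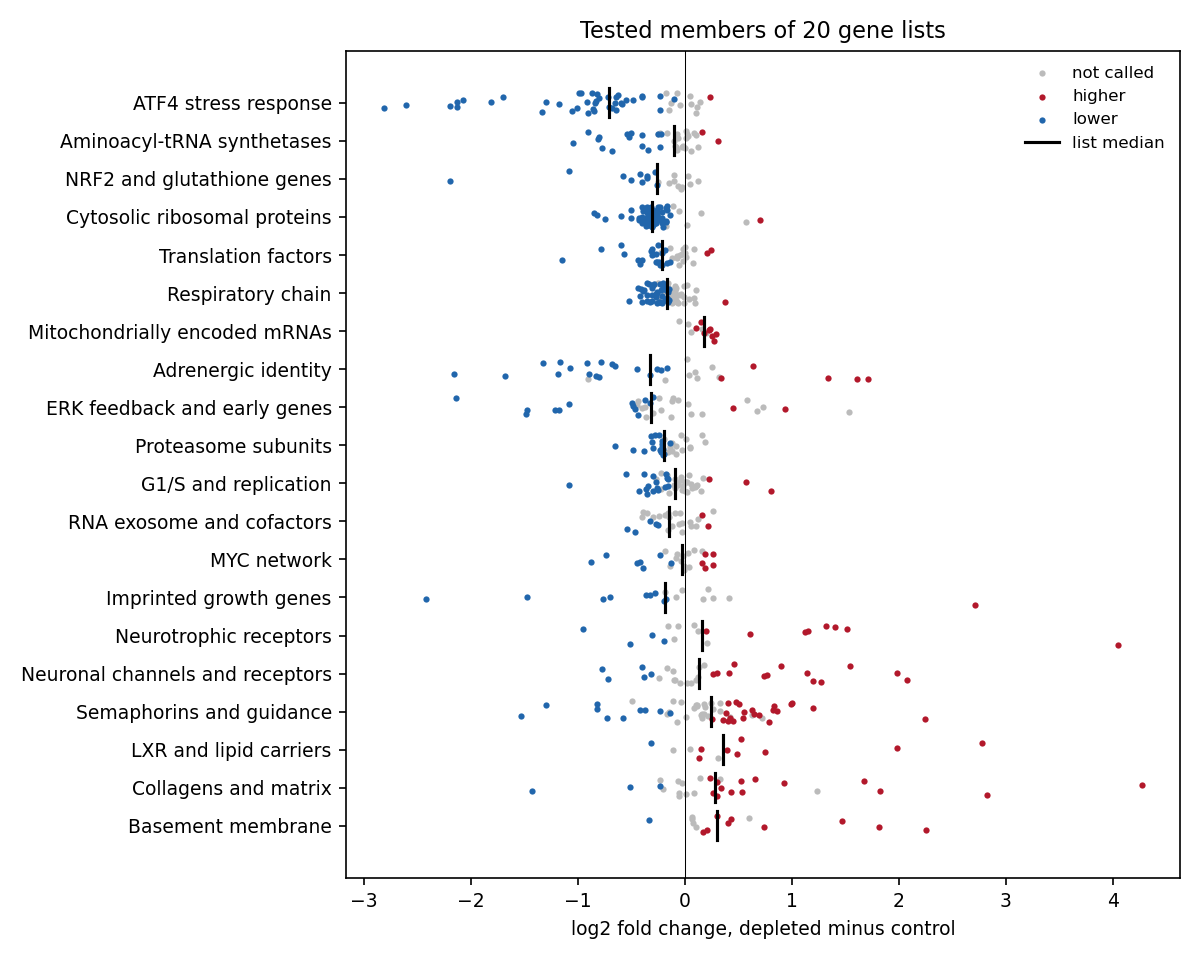
Log2 fold change of each tested member of 20 gene lists, 1 point per gene (red higher, blue lower, grey not called), with a black line at each list's median. Members of the ATF4 response reach -2.81 and their median is -0.71, ribosomal proteins cluster near -0.30, and matrix and receptor genes spread to the right.

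In the MYC network 7 of 24 genes were lower and 5 higher, with 4 lower in the shared fit and without depleted replicate 1. Besides MYCN, its partner MAX was lower, at 52.1, 46.5 and 43.9 CPM without and 35.5, 33.6 and 37.5 CPM with the induced hairpin (log2 fold change -0.42, SE 0.09, edgeR adjusted p = 8.3e-05), as was MXD4 (-0.39), a repressor that competes for MAX. All 5 rises were at most 0.27 on the log2 scale; 0 were called in the shared fit, 2 without depleted replicate 1 or 3 and 3 without any 1 of the controls. Genes of the G1/S transition and replication showed 17 of 48 lower (9 in the shared fit) and 3 higher. CCND1, cyclin D1, which starts the passage through G1, stood at 698, 682 and 687 CPM in the control libraries and 334, 313 and 326 CPM in the depleted libraries (log2 fold change -1.09, SE 0.04, edgeR adjusted p = 2.9e-33). CCNE1, cyclin E1, which acts next, moved the opposite way, at 16.9, 19.5 and 21.8 CPM without and 34.02, 34.6 and 32.8 CPM with the induced hairpin (log2 fold change 0.80, SE 0.10, edgeR adjusted p = 2.0e-09). CDKN2C, an inhibitor of the cyclin D kinases, was higher (0.57) and CDT1, a licensing factor, lower (-0.55).

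Single genes of growth arrest and cell death moved in both directions. TNFRSF10B, the death receptor DR5, stood at 386, 365 and 390.1 CPM in the control libraries and 656, 649 and 652 CPM in the depleted libraries (log2 fold change 0.78, SE 0.04, edgeR adjusted p = 2.3e-25). PHLDA3 (0.76), PLK2 (0.67), SESN1 (0.65) and FDXR (0.64) also rose. CDKN1A (p21), an inhibitor of cyclin-dependent kinases, stood at 26.97, 23.98 and 25.6 CPM without and 32.1, 31.98 and 32.9 CPM with the induced hairpin (log2 fold change 0.34, SE 0.10, edgeR adjusted p = 0.0045). The apoptosis gene PMAIP1 (NOXA), which ATF4 is also known to drive, was lower, at 23.2, 29.9 and 27.7 CPM without and 11.7, 14.3 and 11.2 CPM with the induced hairpin (log2 fold change -1.13, SE 0.12, edgeR adjusted p = 3.7e-12).

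The transcription factors of the adrenergic state, the sympathetic-like identity of IMR-32, were lower in 13 of 17 cases and higher in 0. NHLH1, a neuronal helix-loop-helix factor, stood at 109, 101 and 98.4 CPM in the control libraries and 19.5, 22.7 and 26.6 CPM in the depleted libraries (log2 fold change -2.16, SE 0.08, edgeR adjusted p = 2.0e-33). GATA3 stood at 401, 395 and 395 CPM without and 209, 209.9 and 214 CPM with the induced hairpin (log2 fold change -0.91, SE 0.05, edgeR adjusted p = 2.5e-27). Others that fell were INSM1 (-1.32), EYA1 (-1.18), PHOX2A (-0.89), SIX3 (-0.83), KLF7 (-0.78), HAND2 (-0.68), ISL1 (-0.65), HAND1 (-0.45) and SOX11 (-0.22). GATA2, TBX2, LMO1 and NHLH2 were not called. NEUROD1, a neuronal factor outside that list, was also lower, at 317, 342 and 347 CPM without and 102, 100.2 and 105 CPM with the induced hairpin (log2 fold change -1.71, SE 0.05, edgeR adjusted p = 3.2e-40).

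Of 6 genes for catecholamine synthesis and transport 3 were higher and 2 lower; the whole adrenergic list had 5 higher, and 3 in the shared fit or without depleted replicate 1. DBH, which makes noradrenaline, stood at 200.5, 154 and 177 CPM without and 75.4, 82.4 and 79.3 CPM with the induced hairpin (log2 fold change -1.17, SE 0.06, edgeR adjusted p = 2.6e-23), and GCH1, which supplies the cofactor of TH, fell by 1.68 on the log2 scale. TH, the first enzyme of the pathway, was higher from a low base, at 0.826, 0.736 and 0.904 CPM without and 2.89, 2.42 and 2.77 CPM with the induced hairpin (log2 fold change 1.71, SE 0.39, edgeR adjusted p = 0.00035). Of the granule genes, CHGA, chromogranin A, stood at 1019, 936 and 906 CPM without and 468, 439 and 451 CPM with the induced hairpin (log2 fold change -1.07, SE 0.04, edgeR adjusted p = 5.7e-33), with CHGB (-0.26) and SCG3 (-0.17) also lower, while PCSK1N (1.60) and the processing enzyme CPE (0.64) rose.

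Markers of neuroblastoma, chosen to check the cell label, were present in all libraries. The 12 summed to 4636 to 4910 CPM in controls and 2846 to 2890 CPM after depletion, with 9 lower and 2 higher (1 in the shared fit). In bulk RNA, fewer cells of a type and less RNA per cell cannot be told apart. The 12 Schwann cell and glial markers summed to 44.0 to 49.3 CPM in controls and 235 to 242 CPM after depletion. Of these, SOX10, S100B, MBP, CDH19, GFAP and MIA stayed below 1 CPM in every library and 2 were at 0 throughout. Of the 5 tested, NGFR, ERBB3 and PMP22 rose and 1 was lower, with log2 fold changes from -1.76 to 4.05. NGFR alone went from a mean of 11.9 to 198 CPM and so made up most of the rise in the sum. The 10 fibroblast markers summed to 392 to 418 and then 566 to 593 CPM, with COL1A2, DCN, FAP and POSTN below 1 CPM in every library. Leukocyte, endothelial and epithelial markers had 5 tested genes in all, and 0 were called.

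Growth factor receptors held some of the largest rises. NGFR, the p75 neurotrophin receptor, stood at 11.7, 11.7 and 12.4 CPM in the control libraries and 201, 199.7 and 193 CPM in the depleted libraries (log2 fold change 4.05, SE 0.07, edgeR adjusted p = 2.3e-53). FGFR1, a fibroblast growth factor receptor, stood at 135, 126 and 126 CPM in the control libraries and 389.8, 353 and 366 CPM in the depleted libraries (log2 fold change 1.52, SE 0.05, edgeR adjusted p = 7.5e-38). In both genes the libraries of a group lay close together and far from the other group. Of 18 neurotrophic receptor and ligand genes 8 were higher and 4 lower (2 in the shared fit). The rises included GFRA3 (1.41), ERBB3 (1.15) and NTRK3 (1.13), the receptor of NT-3; NTF4 also rose (1.32), but 45% of its exon bases are shared with CGB7. GFRA1, the GDNF co-receptor, stood at 105, 96.8 and 102 CPM without and 49.7, 53.3 and 53.95 CPM with the induced hairpin (log2 fold change -0.95, SE 0.07, edgeR adjusted p = 1.8e-19). The kinase ALK, an oncogene of neuroblastoma, was not called, at -0.16.

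Of 22 voltage-gated channel genes 11 were higher and 2 lower, and of 8 nicotinic receptor genes 2 were higher and 3 lower; lower genes numbered 5 over both families and 2 in the shared fit. SCN3A, a sodium channel of developing neurons, stood at 25.3, 24.9 and 28.2 CPM without and 60.3, 62.4 and 66.4 CPM with the induced hairpin (log2 fold change 1.27, SE 0.08, edgeR adjusted p = 5.7e-21). KCND2 (1.99), CACNA1C (1.54), CACNA1D (1.20) and SCN9A (1.14) also rose. CHRNA3 and CHRNB4, which form the ganglionic acetylcholine receptor, fell by 0.72 and 0.77. CHRNA1, a muscle-type subunit outside these lists, was among the largest falls of all, at 128, 130.4 and 132 CPM without and 21.8, 20.3 and 24.02 CPM with the induced hairpin (log2 fold change -2.55, SE 0.07, edgeR adjusted p = 4.2e-41). In the Notch pathway 4 of 9 receptors and ligands were higher and 1 lower, with JAG1 (1.03) and NOTCH3 (0.43) rising and DLL3 (-0.49) falling, while 5 of 9 targets and modifiers were lower and 0 higher, led by HES6 (-0.79).

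Axon guidance genes had 22 of 57 higher and 10 lower (6 in the shared fit). The netrin receptors moved in opposite directions: UNC5C stood at 33.7, 34.8 and 35.3 CPM without and 159.7, 164 and 167 CPM with the induced hairpin (log2 fold change 2.24, SE 0.07, edgeR adjusted p = 4.2e-41), and UNC5B at 243, 224 and 239 CPM without and 84.03, 75.2 and 83.9 CPM with the induced hairpin (log2 fold change -1.53, SE 0.06, edgeR adjusted p = 5.7e-35). The ligand SLIT2 rose (0.69) while ROBO2, 1 of its receptors, fell (-0.82). EPHB3 (1.20), an ephrin receptor, rose, and NRP2 (-0.82), a semaphorin co-receptor, fell.

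Matrix genes were more often higher than lower. Of 15 genes of the basement membrane, the sheet on which cells rest, 9 were higher and 1 lower; the lower count was 0 in the shared fit and without control replicate 2 or depleted replicate 1 or 2. COL4A1 stood at 164, 147 and 158 CPM in the control libraries and 561, 527 and 561 CPM in the depleted libraries (log2 fold change 1.82, SE 0.05, edgeR adjusted p = 1.6e-43). Its partner chain COL4A2 stood at 601, 579 and 609.8 CPM without and 1643, 1668 and 1629 CPM with the induced hairpin (log2 fold change 1.46, SE 0.04, edgeR adjusted p = 4.2e-43). NID2, which links collagen IV to laminin, was higher (2.26), as was AGRN (0.74), a heparan sulphate proteoglycan. Of 28 other collagen and matrix genes 14 were higher and 3 lower. COL5A2, a chain of fibrillar collagen V, stood at 2.04, 1.18 and 1.904 CPM without and 30.6, 32.7 and 35.9 CPM with the induced hairpin (log2 fold change 4.27, SE 0.16, edgeR adjusted p = 1.2e-34). COL3A1 (2.83), MMP2 (1.67), a gelatinase, and COL1A1 (0.66) rose too, while TNC, tenascin C, stood at 94.5, 90.6 and 101 CPM without and 37.5, 35.7 and 33.01 CPM with the induced hairpin (log2 fold change -1.43, SE 0.07, edgeR adjusted p = 1.3e-26).

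Of 11 mesenchymal surface and structural genes 7 were higher and 1 lower, with VIM (0.47), PDGFRB (0.66) and THY1 (0.62) among the higher. Of 13 transcription factors 1 was higher and 3 lower. The riser was TBX18, at 3.11, 5.54 and 2.28 CPM without and 28.3, 25.5 and 29.1 CPM with the induced hairpin (log2 fold change 2.93, SE 0.17, edgeR adjusted p = 1.0e-16). TWIST1 stood at 92.9, 83.4 and 94.5 CPM without and 44.7, 40.3 and 45.6 CPM with the induced hairpin (log2 fold change -1.05, SE 0.07, edgeR adjusted p = 5.1e-20), and ZEB1 (-0.28) also fell. Of 39 integrin and adhesion genes 8 were higher and 9 lower. PDLIM3, which binds alpha-actinin at actin filaments, stood at 7.05, 9.66 and 10.6 CPM in the control libraries and 168, 163 and 161 CPM in the depleted libraries (log2 fold change 4.17, SE 0.09, edgeR adjusted p = 8.0e-49), and LDB3, a protein of the same PDZ-LIM family, at 18.3, 22.5 and 21.7 CPM without and 4.95, 5.804 and 4.098 CPM with the induced hairpin (log2 fold change -2.09, SE 0.15, edgeR adjusted p = 2.5e-19). The cell adhesion molecule CDH11 (cadherin 11) rose by 2.52 and L1CAM by 0.74 on the log2 scale.

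Lipid carriers and targets of the liver X receptors (LXR), which sense oxysterols, were higher in 8 of 12 cases and lower in 1, with 5 higher in the shared fit and without control replicate 3 or depleted replicate 2 or 3. APOE, the lipid carrier, stood at 12.5, 12.5 and 13.1 CPM in the control libraries and 90.6, 86.6 and 85.02 CPM in the depleted libraries (log2 fold change 2.78, SE 0.09, edgeR adjusted p = 2.6e-39). The phospholipid enzyme LPCAT3 (0.52) and CLU (0.40) also rose. ABCA1, the cholesterol exporter, stayed under 2 CPM in every library, and its call was lost without control replicate 3 or depleted replicate 2 (edgeR adjusted p = 0.066 to 0.074). Cholesterol synthesis had 10 of 22 genes lower and 3 higher. INSIG1, a sterol-regulated brake, stood at 163, 166 and 173 CPM without and 88.8, 88.6 and 90.6 CPM with the induced hairpin (log2 fold change -0.90, SE 0.06, edgeR adjusted p = 4.0e-22). HMGCS1 (-0.69) and DHCR7 (-0.53) fell, and FDFT1, squalene synthase, rose (0.70).

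Secreted regulators of growth were among the largest single changes. Of 17 imprinted growth genes, expressed from 1 parental copy, 9 were lower (5 in the shared fit) and 1 higher. DLK1 stood at 138, 131 and 134 CPM in the control libraries and 22.8, 26.2 and 25.99 CPM in the depleted libraries (log2 fold change -2.42, SE 0.07, edgeR adjusted p = 2.6e-40). MEG3, the noncoding RNA of the same imprinted domain, stood at 73.5, 70.7 and 62.8 CPM without and 28.3, 25.8 and 20.8 CPM with the induced hairpin (log2 fold change -1.47, SE 0.09, edgeR adjusted p = 1.2e-22). IGF2, a fetal growth factor, was the riser, at 9.28, 10.9 and 7.996 CPM in the control libraries and 61.1, 65.3 and 57.9 CPM in the depleted libraries (log2 fold change 2.71, SE 0.10, edgeR adjusted p = 4.4e-34); 21% of its exon bases are shared with the read-through INS-IGF2. In the TGF-beta and BMP list 6 of 40 were higher and 6 lower, which is 30% called beside 27.1% of all tested genes. INHBE, an activin subunit known as a stress-induced gene, stood at 273, 260.1 and 257 CPM without and 57.2, 54.8 and 62.6 CPM with the induced hairpin (log2 fold change -2.18, SE 0.06, edgeR adjusted p = 2.7e-43). INHBA (-3.18) and TGFB2 (-1.41) fell, and the BMP antagonist CHRD (1.01) and LTBP3 (0.80) rose. Of 34 genes of ERK feedback and early response 13 were lower and 2 higher (1 without control replicate 1 or depleted replicate 2), with ETV4 (-1.49), ETV5 (-1.21), JUN (-1.18) and CCND1 among the lower. SPRY4, a feedback inhibitor of the same pathway, was not called, nor was EGR1.

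Large changes sometimes came in neighbours. Of 17071 pairs of tested genes adjacent on a chromosome, 61 had both members called and at least 2-fold changed in the same direction (44 higher and 17 lower) and 9 in opposite directions. Some pairs overlap in their exons, so that reads may be shared. COL4A1 and COL4A2 on chromosome 13 start back to back and overlap by 1338 bases; the tested genes flanking them, IRS2 and RAB20 included, were not called. COL3A1 and COL5A2 on chromosome 2 run towards each other with 19149 bases between them, and the nearest tested genes, GULP1 and WDR75, were not called. Beyond GULP1, FAM171B (0.46) and ITGAV (0.52) were higher and ZC3H15 (-0.24) was lower. On the same chromosome SCN3A and SCN2A rose, as did SCN1A and SCN9A further along. DLK1 and MEG3 on chromosome 14 fell together with a gene between them, while BEGAIN and DIO3 on either side were not called. Beyond BEGAIN, WARS1 was lower (-0.90), and beyond DIO3 a gene without a symbol was higher (1.13). On chromosome 11 IGF2, INS-IGF2, IGF2-AS and TH rose in a row, with exons shared in part. On chromosome 19 FUT1 and FGF21 start 168 bases apart on opposite strands, and both fell: FUT1, a fucosyltransferase, stood at 11.8, 9.71 and 10.3 CPM without and 0.686, 1.39 and 1.37 CPM with the induced hairpin (log2 fold change -3.20, SE 0.24, edgeR adjusted p = 2.3e-18). RASIP1, the next tested gene beside FUT1, also fell (-1.48), and BCAT2, beside FGF21, was not called. Further along, PLEKHA4 was higher (0.67) and PPP1R15A lower (-0.64). The stretch before the start of FGF21 holds the ATF4 word.

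**Figure D4:**
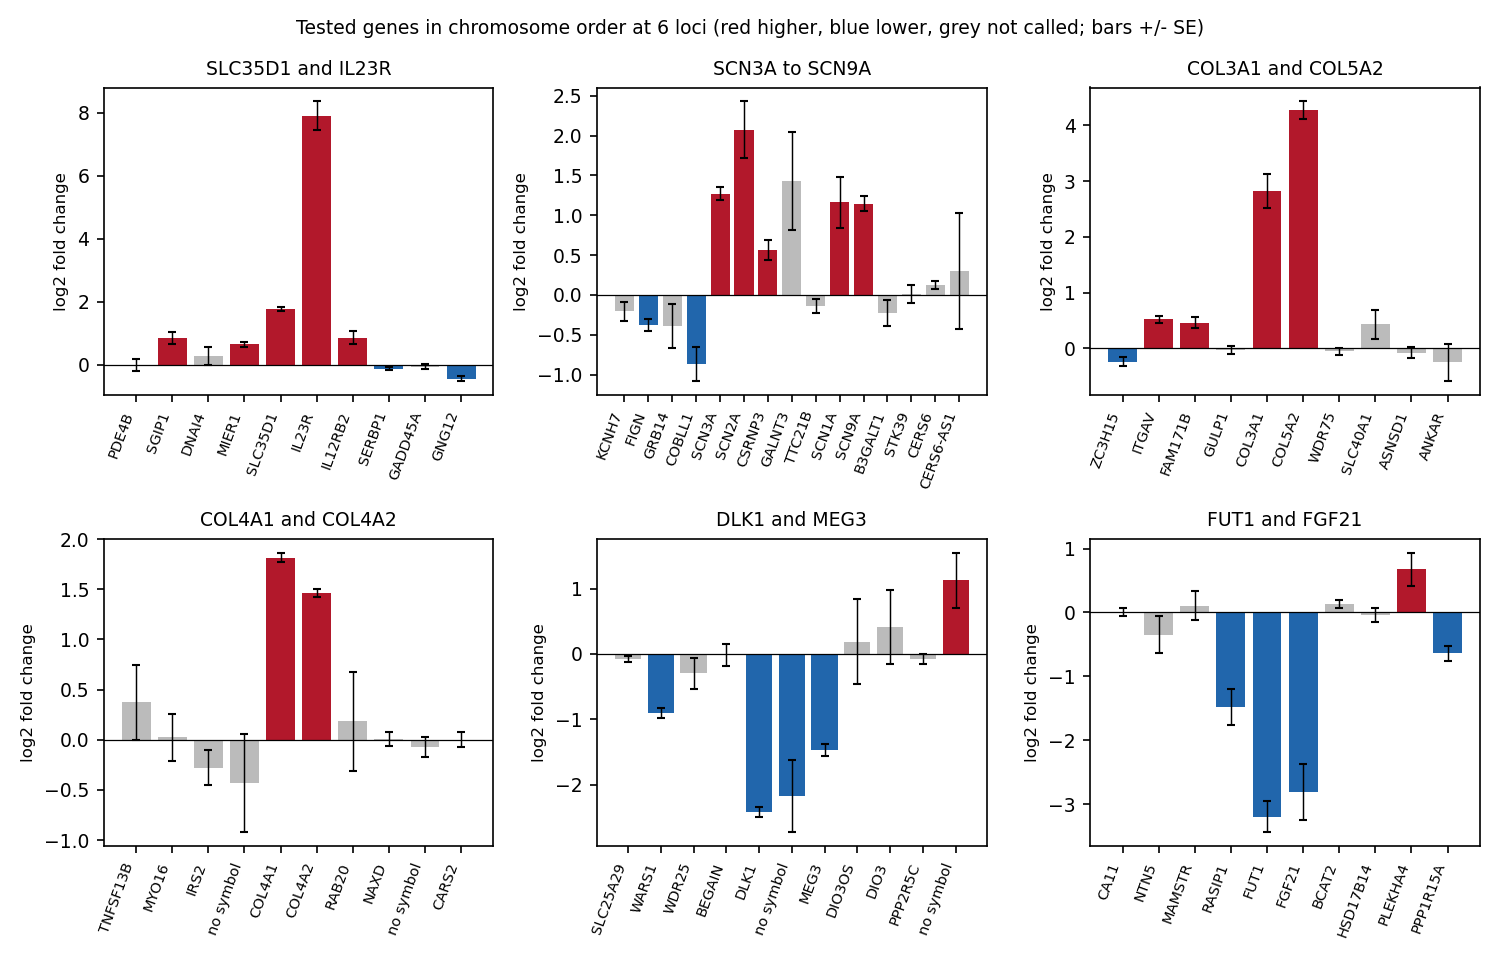
Log2 fold change with its SE for tested genes in chromosome order at 6 loci, red for genes called higher, blue for lower and grey for not called. At 5 of the 6 loci most neighbours of the named genes were not called, and at SLC35D1 and IL23R the flanking genes MIER1, SGIP1 and IL12RB2 were higher, SERBP1 and GNG12 lower and the other 3 not called.

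At the SLC35D1 and IL23R locus on chromosome 1 other genes also changed, in both directions. SLC35D1, a nucleotide-sugar transporter, stood at 30.8, 34.9 and 34.9 CPM without and 112, 115 and 118 CPM with the induced hairpin (log2 fold change 1.78, SE 0.07, edgeR adjusted p = 8.9e-33). IL23R, the receptor of an inflammatory cytokine, started on the opposite strand 112300 bases away, had 0, 0.0981 and 0 CPM in the control libraries and 9.201 CPM on average after depletion; with so few control counts no fold is given. Of the 8 flanking genes 3 were higher, MIER1 at 0.66, SGIP1 at 0.85 and IL12RB2 at 0.87 on the log2 scale. SERBP1 (-0.12) and GNG12 (-0.43) were lower, and PDE4B, DNAI4, which lies between SGIP1 and MIER1, and GADD45A were not called. FOLR1, a folate receptor singled out after its values were seen, showed a like rise from a low level, at 0.583, 0.4904 and 0.666 CPM without and 48.1, 45.8 and 38.02 CPM with the induced hairpin (log2 fold change 6.23, SE 0.18, edgeR adjusted p = 9.5e-42).

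The fall of MYCN raises the question of how these changes compare with MYCN expression in the other cell line. In SHEP, libraries labelled wild type MYCN were set against those without induced MYCN. MYCN itself had too few counts in SHEP to be tested there, so these counts do not show its induction. The difference between the 2 effects was tested in 1 edgeR fit of both count tables. Of 16511 genes in both fits, 3467 (21%) differed, 1800 with the depletion effect below that of MYCN and 1667 above it. The cell lines, vectors and tables differ as well, so the part of each cannot be told apart. Of the 51 ATF4 genes 36 differed, 34 of them with the depletion effect lower; the medians were -0.71 in IMR-32 and 0.28 in SHEP, where 21 were higher and 3 lower. SLC7A11 fell by 2.19 on the log2 scale in IMR-32 and rose by 1.01 in SHEP (difference -3.20, SE 0.16, edgeR adjusted p = 5.0e-16). ASNS fell by 1.70 and rose by 0.58 (difference -2.28, SE 0.13, edgeR adjusted p = 2.8e-14). DDIT4 was lower in both, by 2.13 after depletion and by 0.65 with MYCN.

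Growth genes differed mostly the same way, and matrix genes mostly the other. Of 82 ribosomal protein genes 63 differed, 62 with the depletion effect lower (medians -0.30 and 0.13). Ribosome biogenesis factors, of which 11 of 46 fell on depletion, had 31 higher with MYCN in SHEP (medians -0.07 and 0.33), and 27 differed. CCND1 fell by 1.09 and rose by 1.18 (difference -2.28, SE 0.11, edgeR adjusted p = 3.4e-16), and ODC1 fell by 0.80 and rose by 0.90 (difference -1.70, edgeR adjusted p = 9.4e-14). Of the 15 basement membrane genes 7 differed, each with the depletion effect higher. Of the 28 other collagen and matrix genes 17 differed, 13 with the depletion effect higher and 4 with it lower, TNC (difference -1.55) and LOXL1 (-0.62) among the latter. COL5A2 rose by 4.27 and was lower by 0.84 in SHEP (difference 5.10, SE 0.18, edgeR adjusted p = 4.4e-19). Of 31 adrenergic genes 30 were in both fits and 6 differed. Some of them, such as DBH, CHGA and PCSK1N, had too few counts in SHEP to be tested there. For such genes a difference could hardly be called, so this count does not show that the effects were alike. EXOSC10 was not called in SHEP with wild type MYCN, at 0.20 on the log2 scale, and was lower with MYCN 3A, at -0.40 (edgeR adjusted p = 0.0095).

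**Figure D5:**
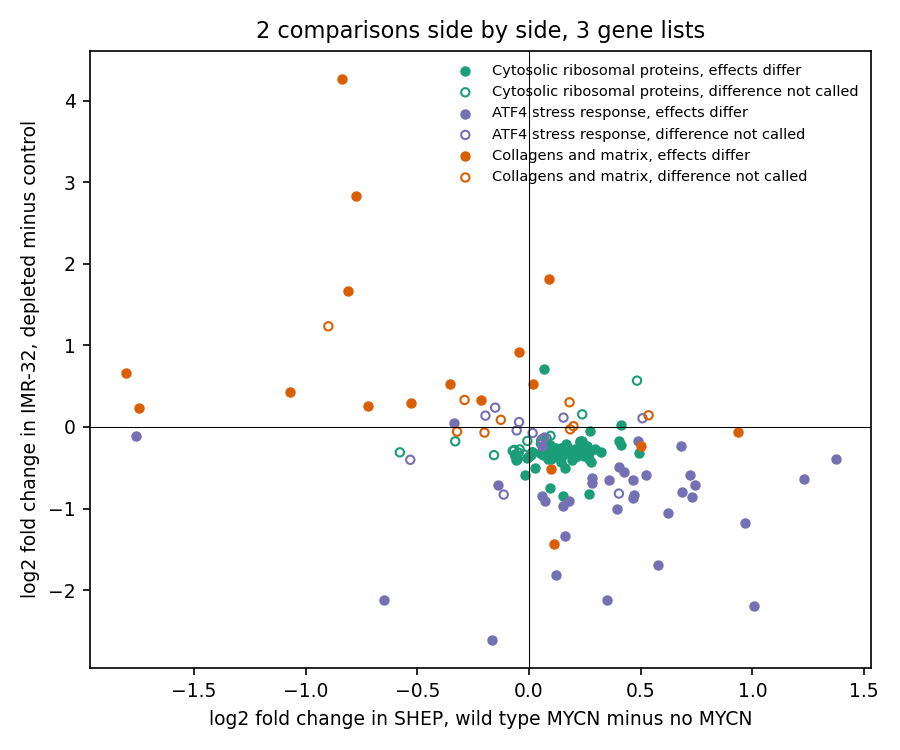
Log2 fold change after EXOSC10 depletion in IMR-32 (vertical axis) against that with wild type MYCN in SHEP (horizontal axis), 1 point per gene of 3 lists, filled where the 2 effects differ at an adjusted p under 0.05. Most ribosomal protein and ATF4 points lie at the lower right, and most matrix genes above 0 on the vertical axis.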

How the data were processed

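Poly(A) RNA of 6 IMR-32 and 9 SHEP libraries was used, as whole-number counts per gene deposited by the authors, who aligned reads with STAR and counted them with featureCounts 2.0.3, per the submitters' processing notes. The SHEP file header names Ensembl 87 gene models (hg19) and strand-specific counting of read pairs; no such settings are given for the IMR-32 table in the sources used here, which has the same gene identifiers and lengths. IMR-32 columns were tied to samples by their treatment and replicate names. Of the gene identifiers, 89.8% matched a symbol.

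edgeR 4.0.16 in R 4.3.3 fitted the 2 IMR-32 groups without a block (TMM scaling, filterByExpr, robust quasi-likelihood F test); SE is the log2 fold change divided by the square root of F. On simulated counts the test called 100% of 2-fold and 89% of log2 0.5 changes, with 100 genes given each, and 0.067% of unchanged genes. Recovery among genes with few counts, or with a spread of their own, was not tested. The difference from SHEP was tested in 1 fit of both tables (18628 genes, 3549 called, 19.1%). CPM is a share of a library, so levels are relative. Replicates were compared pairwise and none were duplicates.

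The members and lists were chosen with earlier results of these data known, and lists are described by counts and medians without a test. Genes named are EXOSC10, MYCN, the 20 largest rises and falls at a mean log2 CPM of at least 3 without overlap, up to 6 called members per list and direction, members of roles described in full, and neighbouring pairs; others were named for their known role after their values were seen. Some genes, and a list that rests on 1 of them, are not reported here. Alternatives were other scaling, DESeq2 1.42.0, other filters, a replicate block, each library left out, and 1 fit on both tables. The floor of 3 counts equals 0.115 to 0.183 CPM. Of counts from 1 to 10, 65.5% to 67.2% were even in each IMR-32 library; whether both reads of a pair were counted is not stated, so a count may be less than 1 fragment and the floor of 3 counts fewer fragments. Promoter and miRNA sequences come from RefSeq (GRCh38.p14).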

Additional observations from a re-analysis of the deposited data

How the results depend on the processing

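EXOSC10 (-0.48 to -0.59) and MYCN (-0.85 to -0.88) stayed lower and called in every analysis. The count of called genes stayed within 1.5-fold of 4639 with DESeq2 size factors (4650), library totals (4650), no filter (4247), a minimum of 1 CPM in 3 libraries (4632) and the DESeq2 Wald test (4421). It moved in the fit on both tables, which shares 1 spread over 5 groups: 2608 genes called, 1100 higher and 1508 lower; the cause was not tested. Leaving out each library in turn gave 3810 to 4386 called, 1844 to 2133 higher and 1939 to 2253 lower. Library totals called 2591 higher and 2059 lower (55.7% higher, beside 49.6%). With replicate number as a block 5251 were called, 2593 higher and 2658 lower, and none of the 426 other named calls was lost. Same-numbered libraries correlated at 0.17, 0.075 and 0.13 in their deviations, and differently numbered ones at -0.13 to 0.0065. Each library thus correlated best with its own number. The labels describe no pairing, so the main fit has no block, and whether the numbers mark pairs was not tested. Of the 426 named calls 115 were lost in at least 1 analysis, 102 of them in the fit on both tables, and 0 changed sign. Genes that differed from SHEP numbered 3549, 4087 against MYCN 3A and 3494 with library totals. Depth limits low genes: counts near the floor of 3 carry wide errors.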

Other observations

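Several gene groups outside the comparisons above are given as values. Proteasome subunits had 18 of 33 lower (11 in the fit shared with SHEP) and 0 higher, with PSMB6 at 61.8, 63.95 and 63.3 CPM without and 36.1, 44.01 and 40.2 CPM with the induced hairpin (log2 fold change -0.65, SE 0.08, edgeR adjusted p = 3.0e-10). Splicing factors moved in both directions: of 29 tested SR and hnRNP genes, 12 were lower and 5 higher (6 and 1 in the shared fit; 3 higher without control replicate 1 and 2 without depleted replicate 2), the lower ones being SRSF1, SRSF3 and 10 hnRNP genes such as HNRNPF (-0.47) and HNRNPC (-0.29), and the higher ones SR and SR-like genes such as SRSF7 (0.23). Class I antigen presentation had 4 of 6 genes higher and 0 lower, with 1 higher in the shared fit and 2 without any library but control replicate 1. B2M, the light chain of the class I complex, stood at 182, 187 and 185 CPM without and 313, 324 and 303 CPM with the induced hairpin (log2 fold change 0.76, SE 0.05, edgeR adjusted p = 3.9e-22). Of 23 interferon and RNA sensing genes 3 were higher and 1 lower, the former being 5 with library totals, with IFI6 (0.59) rising and the adaptor MAVS at 32.9, 38.3 and 42.2 CPM without and 27.5, 28.2 and 28.6 CPM with the induced hairpin (log2 fold change -0.43, SE 0.10, edgeR adjusted p = 0.00026). Zinc finger genes with a ZNF symbol, taken by symbol alone whatever their other domains, had 35 of 400 higher and 32 lower (11 and 13 in the shared fit). The shares called were 17.39% in the interferon list and 16.75% in the ZNF list, beside 27.1% of all tested genes.

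Neuronal differentiation genes did not share a direction. Of 23 cytoskeletal genes 8 were higher and 8 lower (2 and 3 in the shared fit; 4 higher without depleted replicate 2). MAPT, the microtubule protein tau, stood at 37.7, 41.2 and 40.7 CPM without and 69.5, 64.2 and 65.8 CPM with the induced hairpin (log2 fold change 0.74, SE 0.08, edgeR adjusted p = 1.9e-12), and peripherin (PRPH) rose by 0.67, while MAP1B fell by 0.45. Of 26 synaptic vesicle genes 7 were higher (2 in the shared fit) and 3 lower, with SV2A (0.48) and SYT5 (0.67) rising. In the WNT list 7 of 31 were higher (3 in the shared fit) and 4 lower: the receptor FZD1 rose (1.01) and FZD7 fell (-1.14), and ZNRF3, which removes WNT receptors from the surface, stood at 117, 111 and 119 CPM without and 77.9, 70.1 and 72.9 CPM with the induced hairpin (log2 fold change -0.65, SE 0.06, edgeR adjusted p = 1.4e-13). Of 35 autophagy and lysosome genes 9 were higher (5 in the shared fit and without depleted replicate 3) and 9 lower, with cathepsin B (CTSB, 0.46) rising and cathepsin D (CTSD, -0.84) falling. VEGFA, a hypoxia target also known to respond to ATF4, was lower (-0.75), while ADM, another hypoxia target, was higher (1.22).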
